A study of Homo sapiens with 48 samples.

Results

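LINC00473 is a long intergenic non-coding RNA that older annotations call C6orf176. It was taken as all probe sets whose only annotated symbol is LINC00473, which gave 1 probe set and 1 of 19775 genes measured with a single-symbol probe set. The gene was chosen by its rise over vehicle in these same arrays, so its differences from vehicle are described below without a test. RefSeq places it at chr6:165924048-165988039 (GRCh38.p14) as a long non-coding RNA gene. RefSeq's interval for PDE10A, a phosphodiesterase gene, covers it entirely (chr6:165327289-165988052), and LINC00602 overlaps its start (chr6:165987551-165989615). Where the probes of the LINC00473 probe set lie within these genes is not given in the sources used here.

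Expression was measured on Affymetrix U133 Plus 2.0 arrays in BEAS-2B, an immortalised human bronchial epithelial cell line. The cells had 3 days in supplemented keratinocyte serum-free medium and 24 h without supplements. They then received GS-5759 at 10 nM, Ind/GSK (indacaterol and GSK256066, both at 10 nM) or vehicle for 1, 2, 6 or 18 h. Indacaterol stimulates β2-adrenoceptors and acts for a long time, GSK256066 inhibits the cAMP-degrading enzyme PDE4, and GS-5759 is a single molecule with both activities. There were 12 groups of 4 replicates, 48 arrays in all, and the labels do not say whether replicates were separate cultures, so errors and p-values cover only the spread between these samples.

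β2-adrenoceptors act through the G protein Gs and adenylyl cyclase to raise cAMP, which phosphodiesterases break down. Protein kinase A, which cAMP activates, phosphorylates the transcription factor CREB and holds back the salt-inducible kinases, so that the CRTC coactivators enter the nucleus and join CREB at cAMP response elements. LINC00473 is known as a primate-specific RNA that cAMP induces through CREB and CRTC, and it is known to bind the nuclear protein NONO and to be high in lung cancers that have lost LKB1, the kinase upstream of the salt-inducible kinases.

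The promoter of LINC00473 is shown because it holds the letters that CREB is known to bind. The window is chr6:165987990-165988289 on the minus strand, 300 bases from RefSeq on GRCh38.p14, with capitals marking TGACGTC on either strand, that is, the full element TGACGTCA less an end base.
LINC00473: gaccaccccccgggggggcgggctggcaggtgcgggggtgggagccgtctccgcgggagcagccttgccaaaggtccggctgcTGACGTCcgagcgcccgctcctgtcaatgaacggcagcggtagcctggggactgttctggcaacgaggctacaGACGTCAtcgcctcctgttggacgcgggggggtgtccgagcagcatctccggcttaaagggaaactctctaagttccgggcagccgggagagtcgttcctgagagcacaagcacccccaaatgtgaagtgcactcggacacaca
The first match begins 167 bases and the second 94 bases before the annotated start site, the second on the opposite strand. Neither is a full TGACGTCA. Among 35116 RefSeq promoter windows of this length, 3.45% held TGACGTC on either strand and 0.171% held it at 2 or more separate places. The full TGACGTCA was in 1.85% and the shorter TGACG, which overlaps both, in 24.6%. A match to these letters is a description of the window and not a measured binding site. RefSeq's interval for PDE10A ends 13 bases from that of LINC00473, and the interval of LINC00602 spans the window. The matches therefore cannot be assigned to LINC00473 alone.

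The replicate 3 arrays stood apart from the others in every group. The summed signal of 9 measured airway epithelial and basal cell markers ran from 240000 to 492000 over the 12 replicate 3 arrays, against 12200 to 18200 over the 36 arrays of replicates 1, 2 and 4. KRT14, a basal cell keratin, had a median signal of 316000 in replicate 3 and 24.2 in the others, below the filter level of 75.42 used here for testing. KRT5, its partner keratin, had medians of 32800 and 160, and 5 of the 9 markers were higher in all replicate 3 arrays than in all others. EPCAM, an epithelial adhesion protein, was also below the filter level in the median of the others (67.4), whereas KRT8 and KRT18 were at 4900 and 8110 there. Fibroblast markers were above the filter for 7 of 7 genes, with summed signals of 8110 to 10800 in replicate 3 and 8660 to 13800 in the others. LUM and PDGFRA were close to the filter level, with medians of 78.9 and 76.8 in the others. Of 4 measured leukocyte markers, CD3E, CD14 and LYZ were above the filter in the mean of all arrays and PTPRC was below it. CD14 had a median of 200 in replicate 3 but 73.5 in the others, below the filter level. Of 5 endothelial markers, PECAM1 and VWF were above the filter, and CDH5, KDR and TEK were below. VWF was close to it, with a median of 75.9 in the others. The leukocyte and endothelial lists summed to 659 to 924 and 659 to 776 in replicate 3, against 462 to 657 and 607 to 860. Of the ciliated and secretory markers, DNAH5, TUBA1A and MUC5AC were above the filter, and FOXJ1, SCGB1A1 and MUC5B were below it. That list summed to 3180 to 4650 in replicate 3, against 3710 to 6210. No reason for the difference is stated in the labels, and its part in the results was not tested. LINC00473, the counts or calls of the gene lists discussed below and most of their named members are therefore also given without replicate 3. Some of the 8 most similar genes are given so at 2 h.

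LINC00473 was higher than vehicle in both treatments at 1 h, highest at 2 h, lower again at 6 h and close to vehicle at 18 h. Values are linear probe set signals, in the order of replicates 1 to 4. Differences between group means are on the log2(signal + 16) scale with their standard error (SE) from limma, 0.30 for each comparison with vehicle.

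**Figure D1:**
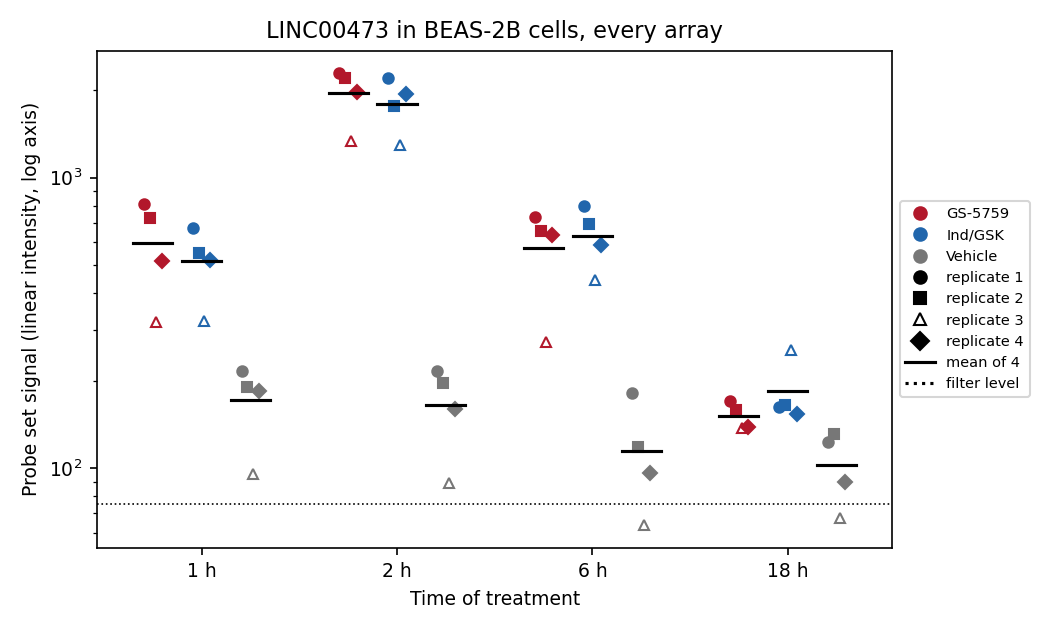
LINC00473 probe set signal (linear intensity on a log axis) in each of the 48 arrays, by hours of treatment. Horizontal lines are means of 4 arrays, triangles are replicate 3, and the dotted line is the filter level of 75.42. At 2 h all 8 treated arrays lie between 1291 and 2287, above all 4 vehicle arrays.

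At 1 h the signal was 811.8, 728.9, 317.8 and 518.3 with GS-5759. It was 671.1, 549.3, 322.2 and 519.7 with Ind/GSK. With vehicle it was 216.3, 190.6, 95.7 and 184.4. All treated arrays lay above all vehicle arrays, and replicate 3 was the lowest array of each group. Over vehicle, the group means were higher by 1.67 with GS-5759 (3.18-fold) and by 1.51 with Ind/GSK (2.85-fold).

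At 2 h the signal reached 2287, 2211, 1337 and 1969 with GS-5759 (mean 1951 ± 431.2, SD, n = 4). It reached 2207, 1765, 1291 and 1934 with Ind/GSK (1799 ± 384.7). Vehicle arrays had 216.2, 197.1, 88.8 and 160.2 (165.6 ± 56.23). The treated groups did not overlap with vehicle, and the lowest treated array, with 1291, stood far above the highest vehicle array, with 216.2. The differences were 3.47 for GS-5759 (11.1-fold) and 3.36 for Ind/GSK (10.3-fold), the third largest of 14409 genes tested in each comparison.

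At 6 h GS-5759 arrays had signals of 735.3, 655.5, 272.6 and 634.5. Ind/GSK arrays had 798.6, 691.9, 446.0 and 585.9. Vehicle arrays had 181.2, 118.0, 63.7 and 96.0. The treated arrays again lay above all vehicle arrays, and the gap was smaller than at 2 h in signal. The differences were 2.16 (4.48-fold) with GS-5759 and 2.35 (5.11-fold) with Ind/GSK, ranked 6 and 5 among the genes tested.

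At 18 h the signal was 169.9, 158.4, 137.6 and 138.7 with GS-5759. It was 162.1, 164.9, 254.8 and 154.0 with Ind/GSK. Vehicle arrays had 123.3, 131.0, 67.7 and 90.0. The groups still did not overlap, but the lowest GS-5759 array exceeded the highest vehicle array by only a few units of signal. The differences were 0.52 (1.44-fold) with GS-5759 and 0.76 (1.69-fold) with Ind/GSK. Without replicate 3 they were 0.40 and 0.45, so the Ind/GSK value at 18 h rested in part on its replicate 3 array, the only group in which replicate 3 was the highest of 4. At 1, 2 and 6 h, leaving out replicate 3 gave 1.70, 3.40 and 2.26 with GS-5759, and 1.48, 3.26 and 2.29 with Ind/GSK.

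Every treated array thus lay above every vehicle array of its time in all 8 comparisons. Over all genes tested this was so for 1.24% of genes at 1 h, 2.98% at 2 h, 3.79% at 6 h and 1.95% at 18 h with GS-5759. With Ind/GSK it was so for 1.35%, 1.96%, 2.23% and 1.44% of genes at these times. LINC00473 was chosen for this pattern, so nothing is read from its own count or from its ranks at 2 and 6 h.

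The rise was short. Measured as mean signal above the vehicle mean, 23.7% of the 2 h rise with GS-5759 was present at 1 h, 25.8% at 6 h and 2.70% at 18 h. With Ind/GSK the shares were 21.0%, 31.6% and 4.95%. On the log2 scale the difference from vehicle grew between 1 and 2 h by 1.80 ± 0.43 (SE) with GS-5759 and 1.85 ± 0.43 with Ind/GSK. Between 2 and 6 h it changed by -1.31 and -1.01, and between 6 and 18 h by -1.64 and -1.60, each ± 0.43.

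Vehicle cells carried a measurable level of LINC00473 throughout. Vehicle means were 171.8 ± 52.54 at 1 h, 165.6 ± 56.23 at 2 h, 114.7 ± 49.63 at 6 h and 103.0 ± 29.52 at 18 h (SD, n = 4), all above the filter level. The vehicle replicate 3 arrays at 6 and 18 h (63.7 and 67.7) were below it. Against vehicle at 1 h, vehicle was lower by 0.06 at 2 h, 0.55 at 6 h and 0.64 at 18 h on the log2 scale, each with an SE of 0.30.

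Ordered by mean log2 level, the 12 groups fell into 3 tiers. The 2 h groups led, GS-5759 at 10.91 and Ind/GSK at 10.80. The 6 h Ind/GSK (9.31), 1 h GS-5759 (9.17), 6 h GS-5759 (9.12) and 1 h Ind/GSK (9.01) groups followed. Below them came Ind/GSK at 18 h (7.62), vehicle at 1 h (7.50) and 2 h (7.44), GS-5759 at 18 h (7.38), and vehicle at 6 h (6.95) and 18 h (6.86). Gaps between tiers were 1.49 and 1.39, against a residual SD of 0.43 between replicates. No other neighbouring groups differed by more than that SD.

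Replicate 3 had a lower level of LINC00473 but a similar rise. It was the lowest array in 11 of 12 groups, with a median log2 deviation of -0.74 from the mean of the other replicates of its group. Set against the vehicle array of the same number and time, its signal was 12.9-fold higher with GS-5759 and 12.5-fold with Ind/GSK at 2 h. The other replicates were 9.92-fold to 11.3-fold higher with GS-5759 and 8.36-fold to 11.1-fold with Ind/GSK. The ranges over all 4 replicates were 2.67-fold to 3.61-fold and 2.67-fold to 3.03-fold at 1 h, and 3.62-fold to 5.81-fold and 4.13-fold to 5.80-fold at 6 h. At 18 h they were 1.19-fold to 1.84-fold with GS-5759 and 1.23-fold to 3.24-fold with Ind/GSK, the last value being replicate 3. These folds are ratios of signal + 16.

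**Figure D2:**
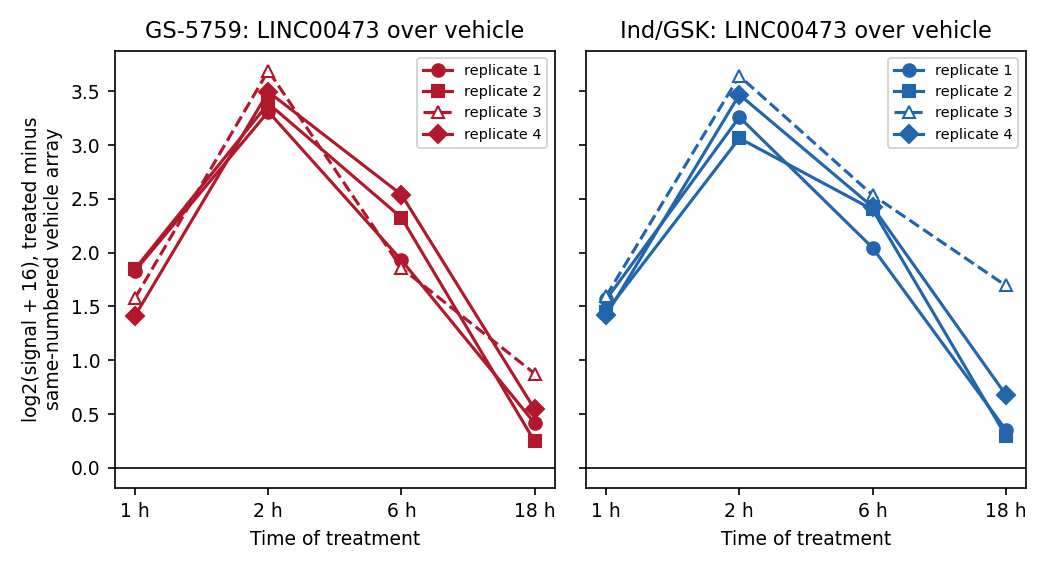
LINC00473 in each treated array minus the vehicle array of the same replicate number and time, on the log2(signal + 16) scale, by hours of treatment, for GS-5759 (left) and Ind/GSK (right). Each line is 1 replicate and the dashed line is replicate 3. All 8 lines peak at 2 h, and replicate 3 with Ind/GSK stays 3.24-fold above its vehicle array at 18 h.

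GS-5759 and Ind/GSK were then compared with each other, a difference that played no part in choosing the gene. No difference of LINC00473 between them passed the test. GS-5759 minus Ind/GSK was 0.16 at 1 h (95% interval -0.45 to 0.77, limma adjusted p = 0.834) and 0.11 at 2 h (-0.50 to 0.73, adjusted p = 1). It was -0.19 at 6 h (-0.80 to 0.42, adjusted p = 1.00) and -0.24 at 18 h (-0.85 to 0.38, adjusted p = 1). Within same-numbered pairs the GS-5759 array was the higher in 2 of 4 at 1 h, 4 of 4 at 2 h, and 1 of 4 at both 6 and 18 h. The ratios of signal ran from 0.986 to 1.33 at 1 h, 1.02 to 1.25 at 2 h, 0.611 to 1.08 at 6 h and 0.540 to 1.05 at 18 h. The 2 lowest ratios, at 6 and 18 h, were those of replicate 3.

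Averaged over the 4 times, GS-5759 was 0.04 below Ind/GSK on the log2 scale, with an SE of 0.15 and adjusted p = 0.890. The interval of this average, 0.787-fold to 1.20-fold, bounds the difference these arrays leave room for, whereas the intervals at single times reach 1.71-fold at 1 h and 0.555-fold at 18 h. With replicate number as a block they reach 1.44-fold and 0.658-fold, and the interval of the average is 0.858-fold to 1.11-fold. Without replicate 3 the average was 0.07 ± 0.08 (SE) above Ind/GSK (adjusted p = 0.597). Changes of the difference between neighbouring times were -0.05, -0.30 and -0.05, each ± 0.43 (adjusted p = 1 for each). Over all genes, limma called 0 of 14409 between the treatments at each time, with 855, 273, 468 and 54 at an unadjusted p under 0.05. Over the 4 times it called 13 genes, 0.0902%, of which 6 were higher with GS-5759 and 7 lower. That count and its direction depended on the processing: the replicate block gave 1890 higher and 170 lower, centring on the 75th percentile 0 and 84, quantile normalization 0 and 35, all probe sets 94 and 36, no filter 1 and 6, and leaving out replicate 3 gave 0 and 2.

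**Figure D3:**
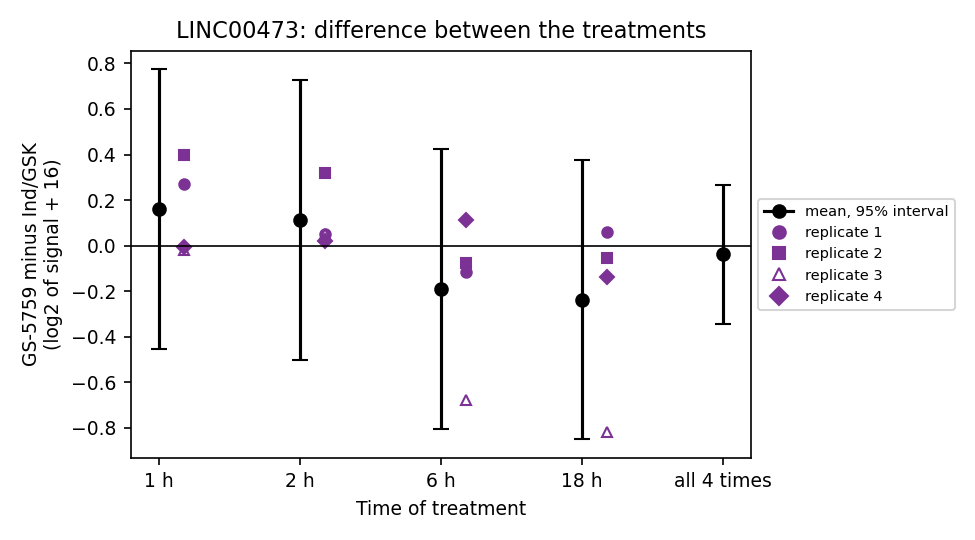
GS-5759 minus Ind/GSK for LINC00473 on the log2(signal + 16) scale at each time and averaged over the 4 times. Black points are differences of means with 95% intervals, and coloured symbols are same-numbered pairs. Every interval spans 0, and replicate 3 gives the lowest pairs, at 6 and 18 h.

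The genes whose group means were most like those of LINC00473 were found by Pearson's r over the 12 group means, among 414 tested genes with a range of at least 1 on the log2 scale. The 12 means share arrays and the same treatments, so r is a description of likeness only. CHMP1B, a subunit of the ESCRT-III membrane-cutting machinery, came first (r = 0.983). CD200, an immune inhibitory surface protein (0.979), CASP9, the initiator caspase of the mitochondrial death pathway (0.978), RGCC, a cell cycle regulator (0.974), and SLCO4A1, an organic anion transporter (0.973), followed. CCL2, a monocyte chemokine (0.971), CD55, an inhibitor of complement (0.971), and HRK, a pro-apoptotic BH3-only protein (0.969), completed the 8.

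All 8 peaked at 2 h with both treatments and stood nearer to vehicle than LINC00473 in each of the 8 comparisons. At 2 h CD200 was higher than vehicle by 2.12 with GS-5759 and 2.12 with Ind/GSK. HRK was higher by 1.90 and 1.86, and SLCO4A1 by 1.85 and 1.69. CCL2 had the smallest differences, 1.11 and 1.00. Without replicate 3 these were 2.02 and 2.00 for CD200, 1.76 and 1.68 for HRK, 1.63 and 1.45 for SLCO4A1, and 1.09 and 0.89 for CCL2. At 18 h the 8 lay between -0.08 and 0.26 with GS-5759 and between -0.07 and 0.43 with Ind/GSK. Likeness over group means did not extend to replicates: replicate 3 was the lowest array in 12 of 12 groups for CD200 and HRK, as it was in 11 for LINC00473, but the highest in 12 of 12 for SLCO4A1 and in 9 for CHMP1B.

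**Figure D4:**
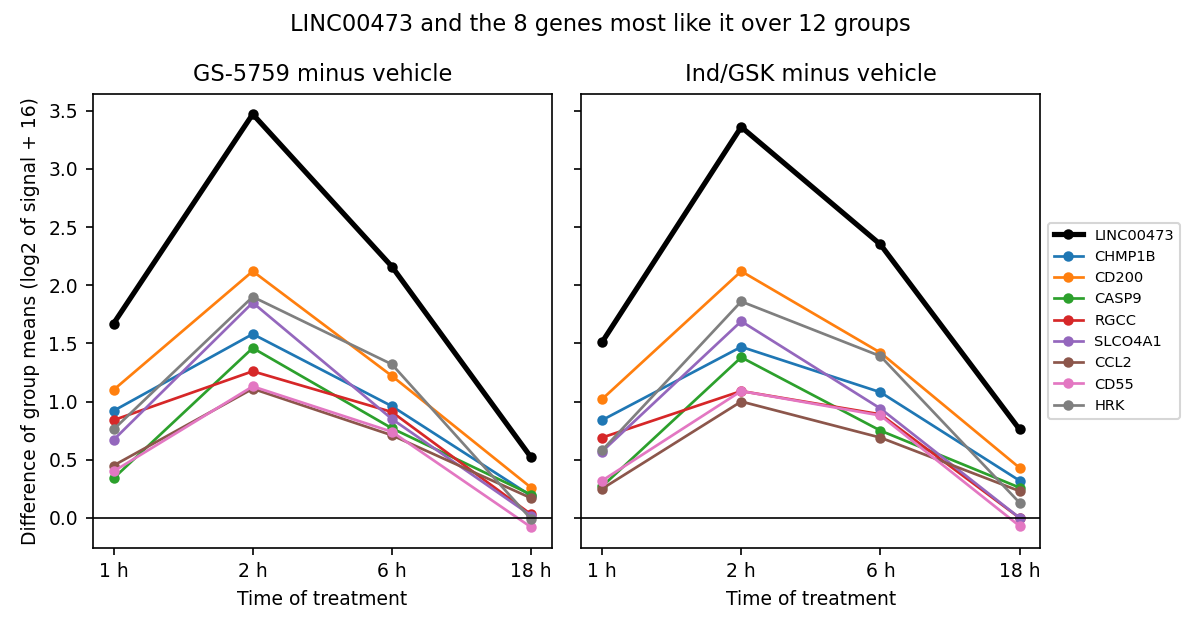
Difference of group means from vehicle on the log2(signal + 16) scale, by hours of treatment, for LINC00473 (black) and the 8 genes most like it over the 12 group means, with GS-5759 (left) and Ind/GSK (right). All 9 lines are highest at 2 h, where LINC00473 stands at 3.47 and 3.36 and the others at 2.12 or less.

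Known cAMP-CREB target genes, a list of 20 measured genes of which 17 passed the filter, gave most of their calls at 1 and 2 h, and 10 of the 17 were called in at least 1 comparison. Limma called 8, 10, 4 and 0 of them as higher at 1, 2, 6 and 18 h with GS-5759, and 8, 10, 6 and 0 with Ind/GSK. Over all genes tested the shares called higher were 0.257%, 1.6%, 1.03% and 0% with GS-5759, and 0.451%, 1.34%, 1.03% and 0.0208% with Ind/GSK. None was called lower. The list medians at 2 h were 1.52 and 1.23, beside -0.01 and -0.05 over all genes. Without replicate 3 the counts were 8, 10, 3 and 0, and 8, 10, 5 and 0. Without it, a limma fit of all 41091 single-symbol probe sets called 0.2%, 1.63%, 0.698% and 0.00487% in either direction with GS-5759. With Ind/GSK that fit called 0.864%, 1.34%, 1.2% and 0%. With replicate number as a block they were 12, 15, 9 and 0, and 12, 15, 11 and 1. The block called 0.999%, 5.27%, 6.01% and 0.0972% of all genes higher with GS-5759, and 2.28%, 3.76%, 4.68% and 0.514% with Ind/GSK. After centring on the 75th percentile the GS-5759 count at 6 h was 2. Both this list and the comparisons were chosen with earlier results of these arrays known.

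NR4A3, an orphan nuclear receptor, had at 2 h a mean signal of 2170 ± 1150 with GS-5759 and 2010 ± 969 with Ind/GSK, against 27.4 ± 12.9 with vehicle (SD, n = 4). It passed the filter only through its treated arrays, the 1 of the 17 whose vehicle mean is below the filter level, so no p is given for it and the counts above include it for description only. The size of its difference, 5.53 and 5.46 on the log2 scale, depends on the added 16. Its relative NR4A2 rose by 4.24 and 4.14 at 2 h (adjusted p = 0.000204 and 0.000341), and by 3.86 and 3.79 without replicate 3 (adjusted p = 0.000867 and 0.00134). At 6 h it had 1.55 and 2.28, which missed the threshold (adjusted p = 0.369 and 0.0719, with 0.00869 and 7.83e-05 under the block). IL6, a cytokine, rose most at 1 h, by 3.35 and 3.25 (adjusted p = 4.07e-05 and 8.36e-05), and by 3.22 and 3.08 without replicate 3 (adjusted p = 0.000817 and 0.00163). CRISPLD2, a secreted protein, rose by 2.97 and 2.95 at 2 h and by 3.07 and 3.04 at 6 h (adjusted p at most 4.51e-06), and by 2.97, 2.93, 3.16 and 3.08 without replicate 3. The block alone also called IL6 at 6 h (1.11, adjusted p = 0.0198, against 0.248) and CRISPLD2 at 18 h (0.81, adjusted p = 0.00369, against 0.823), both with Ind/GSK. Taking the mean of both treatments, 6 of the 10 targets called in any comparison had their largest difference at 2 h, as LINC00473 did. NR4A3 is among these 6, again for description only. For DUSP1, IL6 and PRDM1 the largest difference was at 1 h, and for CRISPLD2 at 6 h. Replicate 3 was the highest array of NR4A2 in 11 of 12 groups, where it was the lowest of LINC00473.

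Of the LKB1, SIK and CRTC genes, 10 tested, those called were salt-inducible kinases. Limma called 1, 2, 0 and 0 higher at 1, 2, 6 and 18 h with GS-5759, beside 0.257%, 1.6%, 1.03% and 0% of all genes. With Ind/GSK it called 1, 2, 1 and 0, beside 0.451%, 1.34%, 1.03% and 0.0208%. Without replicate 3 the counts were 1, 2, 0 and 0, and 1, 2, 1 and 0. With the block they were 1, 2, 3 and 0 with each treatment, read against the shares of all genes that the block called higher. The block also called 2 lower with Ind/GSK at 1 h and 1 lower at 6 h, where it called 15.8% and 13.1% of all genes lower. SIK1, itself a CREB target that restrains CRTC, rose by 2.36 and 2.23 at 1 h and by 2.74 and 2.58 at 2 h with GS-5759 and Ind/GSK (adjusted p at most 0.000805). The genome also holds a near-identical copy, SIK1B, which these probes may not separate. At 6 h its values were 1.23 with GS-5759 (adjusted p = 0.105, 1.75e-05 with the block) and 1.53 with Ind/GSK (adjusted p = 0.0150). Without replicate 3, SIK1 gave 2.71 and 2.51 at 2 h and the Ind/GSK call at 6 h held (adjusted p = 0.0286). SIK2 rose at 2 h by 1.18 and 1.22 (adjusted p = 0.000194 and 0.000143), or 1.01 and 1.06 without replicate 3. Its 0.59 and 0.67 at 6 h passed only with the block (adjusted p = 0.00209 and 0.000251, against 0.165 and 0.0509). CRTC1, CRTC2 and CRTC3 passed in no comparison and ranged from -0.39 to 0.20. With the block, CRTC1 (-0.39) and CRTC2 (-0.22) were called lower with Ind/GSK at 1 h (adjusted p = 0.0424 and 0.0240). Since the block called 15.8% of all genes lower in that comparison, and the median of all genes there was -0.10, nothing is read from these calls.

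The phosphodiesterases, 10 genes tested, include enzymes that remove cAMP. PDE10A, 1 of the 10, passed the filter only through its treated arrays, so the counts include it for description only. PDE4D rose at 2 h by 2.43 and 2.41 and at 6 h by 1.69 and 1.84 with GS-5759 and Ind/GSK (adjusted p at most 0.0379). PDE4B rose at 2 h by 1.01 and 0.93 (adjusted p = 0.0102 and 0.0177). At 1 h PDE4D had 1.14 and 0.94 (adjusted p = 0.793 and 0.250, with 8.48e-05 and 0.000867 under the block). PDE4B had 0.81 and 0.74 there (adjusted p = 0.284 and 0.0824, with 0.0112 and 0.00796 under the block and 0.00120 and 0.00965 without replicate 3). PDE7B followed a later course, with -0.07 and -0.24 at 1 h, 0.05 and -0.03 at 2 h, then a rise of 2.04 and 2.08 at 6 h (adjusted p = 2.95e-08 and 1.63e-08). Without replicate 3, PDE4D gave 2.35 and 2.27 at 2 h and PDE7B 2.07 and 2.06 at 6 h, all still called. These 3 genes were the only ones of the list called, 2 at 2 h and 2 at 6 h with each treatment. Over all genes, limma called 1.6% and 1.34% higher at 2 h with GS-5759 and Ind/GSK, and 1.03% with each at 6 h. Without replicate 3, 1, 2, 3 and 0 were called higher at 1, 2, 6 and 18 h with GS-5759, and 1, 2, 2 and 0 with Ind/GSK. The shares of all probe sets without replicate 3, given for the target list, are only a rough guide to these counts. They come from a fit without the filter and count both directions. With the block the counts were 2, 2, 5 and 0, and 2, 2, 4 and 2, read against the shares of all genes that the block called higher. The 2 at 18 h were PDE4D (0.72, adjusted p = 0.0313, against 0.933 without the block) and PDE7B (0.85, adjusted p = 0.0219, against 0.160).

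Genes that act upstream of CREB targets were examined next. Of 12 receptor, adenylyl cyclase and protein kinase A genes, limma called 0 in the 8 comparisons, and also 0 without replicate 3. In the main fit 3 had an unadjusted p under 0.05 in at least 1 comparison, and the block called at most 2 in any comparison. Limma called between 0% and 3.73% of all genes in these comparisons, so 0 of 12 does not set the list apart from them. At 2 h the block called 2 higher with GS-5759 and 1 higher with Ind/GSK, where it called 5.27% and 3.76% of all genes higher. It called 1 higher and 1 lower with GS-5759 at 6 h, where it called 6.01% of all genes higher and 4.58% lower. With Ind/GSK at 6 h it called 2 lower, where it called 13.1% of all genes lower. Of 4 CREB family and CREB-binding protein genes only CREM, a CREB relative, was called. It rose by 0.47 and 0.43 at 2 h (adjusted p = 0.0126 and 0.0242), where 1.6% and 1.34% of all genes were called higher. Without replicate 3 that call was lost with both treatments. Of 6 paraspeckle genes, NONO, the known protein partner of LINC00473, fell by 0.13 with Ind/GSK at 6 h (adjusted p = 0.0255), where 2.7% of all genes were called lower, and had -0.09 with GS-5759 (adjusted p = 0.274). The NONO call was lost under either other scaling and without replicate 3. With the block NONO was also called lower with Ind/GSK at 1 h (-0.13, adjusted p = 0.0122, against 0.0531), the comparison in which the block called 15.8% of all genes lower.

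The promoters of the cAMP-responsive genes were read for the same letters as that of LINC00473. The set was the target list with SIK1, PDE4B, PDE4D and CREM, chosen with their values known, and genes with several start sites have several windows. Of 13 such genes with a RefSeq window and a rise at 2 h with both treatments, 7 held TGACGTC in at least 1 window. NR4A3 is among the 13 and the 7 for description only, as it passed the filter only through its treated arrays. Of 6 targets without such a rise 2 held TGACGTC, and of 6 most-like genes with a window only CHMP1B did. The 3.45% given above is a share of windows, whereas these are counts of genes, some with several windows. The counts are therefore not set against it, and no enrichment is read from them. The matches of the rising genes and of CHMP1B are shown with 8 bases on either side, 5′ to 3′ on the gene's strand, for comparison with the pair in LINC00473, with TGACGTC on either strand or TGACGTCA in capitals.
NR4A3 (chr9:99821794-99821816, plus strand): cgtcacatTGACGTCtcgcattc
DUSP1 (chr5:172771353-172771375, minus strand): gaggctgaTGACGTCtccccctc
DUSP1 (chr5:172771305-172771328, minus strand): agggcgggTGACGTCAccgccccg
RGS2 (chr1:192808848-192808870, plus strand): gggccgcaGACGTCAgcagcgcc
IL6 (chr7:22727028-22727050, plus strand): tgctaaagGACGTCAcattgcac
PRDM1 (chr6:106098858-106098880, plus strand): actcagttTGACGTCgtcagccg
SIK1 (chr21:43427245-43427267, minus strand): gtcaaagcGACGTCAatgggcgg
CREM (chr10:35195844-35195867, plus strand): ctgcacatTGACGTCAgctccgag
CHMP1B (chr18:11851359-11851382, plus strand): ctgggctcTGACGTCAccacctgc
DUSP1 is the only other gene shown that has 2 separate matches, and of those shown DUSP1, CREM and CHMP1B have the full TGACGTCA. Of the 13 rising genes 2 held the full element, as did 2 of the 6 targets without such a rise, VGF and DIO2.

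Among other long intergenic RNAs named by a LINC symbol, 313 were tested. LINC00473 had the largest difference from vehicle in 7 of 8 comparisons and the third largest with GS-5759 at 18 h. It was chosen for its rise over vehicle in these arrays, so nothing is read from these ranks. The next at 2 h were LINC01128 with GS-5759 (0.62, adjusted p = 0.00773) and LINC03027 with Ind/GSK (0.65, adjusted p = 0.0529, or 0.00801 with the block). At 6 h LINC03014 came next, with 0.70 (adjusted p = 0.0624, or 8.91e-06 with the block) and 0.85 (adjusted p = 0.00877).

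The genes near LINC00473 were examined next, as measures that did not enter its choice. RefSeq lists 41 other genes within 1 Mb, 11 of them with a single-symbol probe set. Of these, 6 passed the filter: MPC1, PDE10A, RNASET2, RPS6KA2, SFT2D1 and TBXT. PDE10A passed only through its treated arrays, as its vehicle mean was below the filter level, so the counts include it for description only. Limma called 0 of the 6 in the 8 comparisons, and none of the 48 tests had an unadjusted p under 0.05. The block also called 0. Over all genes tested limma called 0.271%, 2.43%, 1.58% and 0% at 1, 2, 6 and 18 h with GS-5759, and 1.83%, 3.49%, 3.73% and 0.0486% with Ind/GSK. Their differences lay between -0.24 and 0.25 on the log2 scale.

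The gene PDE10A has 3 probe sets, and the second brightest was below the filter in its mean over all arrays and was higher at 6 h. PDE10A encodes a phosphodiesterase of cAMP and cGMP. At 6 h the signal was 94.0, 105.6, 64.4 and 84.3 with GS-5759. It was 81.8, 94.9, 68.2 and 108.0 with Ind/GSK. Vehicle arrays had 27.2, 29.3, 18.0 and 33.7. All treated arrays lay above all vehicle arrays, the nearest being 64.4 with GS-5759 and 33.7 with vehicle. A fit of all 41091 single-symbol probe sets without a filter, added after these values were seen, gave 1.26 ± 0.20 (SE) with GS-5759 (2.39-fold, adjusted p = 0.000145) and 1.28 ± 0.20 with Ind/GSK (2.42-fold, adjusted p = 9.98e-05). That fit called 0.793% and 1.64% of probe sets. The size depends on the added 16, being 1.66 with 1 added and 0.73 with 64 added for GS-5759, and the call held in each alternative run.

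At 2 h, when LINC00473 was highest, this probe set of PDE10A was close to vehicle. Its differences at 1, 2 and 18 h were -0.03, 0.01 and -0.13 with GS-5759 and -0.37, 0.02 and -0.03 with Ind/GSK. Vehicle itself was lowest at 6 h, with mean signals of 40.3, 37.1, 27.0 and 36.6 at 1, 2, 6 and 18 h. Treated means were 38.2 with GS-5759 and 38.1 with Ind/GSK at 2 h, and 87.1 and 88.2 at 6 h. Part of the difference at 6 h is therefore the lower vehicle level. The response was larger at 6 h than at 2 h by 1.25 and 1.26, which missed the threshold (adjusted p = 0.0644 and 0.0668). Both passed with the block (6.4e-05 and 8.62e-05), after centring on the 75th percentile (0.0469 and 0.0491) and with 64 added (0.0301 and 0.0338), and missed it under the other 3 alternatives. It was smaller at 18 h than at 6 h by 1.39 and 1.31 (adjusted p = 0.0303 and 0.0418). Both calls at 18 h were lost with 1 added in place of 16 (adjusted p = 0.0833 and 0.0841). The brighter PDE10A probe set, which passed the main filter only through its treated arrays, gave 0.23 and 0.21 at 6 h. The dimmest gave 0.14 and 0.07. In the unfiltered fit adjusted p was 0.550 and 0.619 for the brighter and 0.751 and 0.920 for the dimmest. Thus 1 of 3 PDE10A probe sets passed. Of the probe sets near LINC00473 outside the main test, the only other one to pass in the unfiltered fit was a dim one of MPC1, a mitochondrial pyruvate carrier subunit, with 0.68 and 0.56 at 6 h (adjusted p = 0.00977 and 0.0336). The brightest MPC1 probe set, used in the main test, gave 0.03 and 0.01 there. With the block 3 more passed, each lower than vehicle: 2 of RNASET2, with GS-5759 at 2 h (-0.51, adjusted p = 0.0410) and 6 h (-0.27, adjusted p = 0.0372), and 1 of SFT2D1, with Ind/GSK at 1 h (-0.48, adjusted p = 0.0194). In these comparisons the block called 5.04%, 5.68% and 10.3% of all 41091 probe sets in either direction, so nothing is read from these 3 calls.

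**Figure D5:**
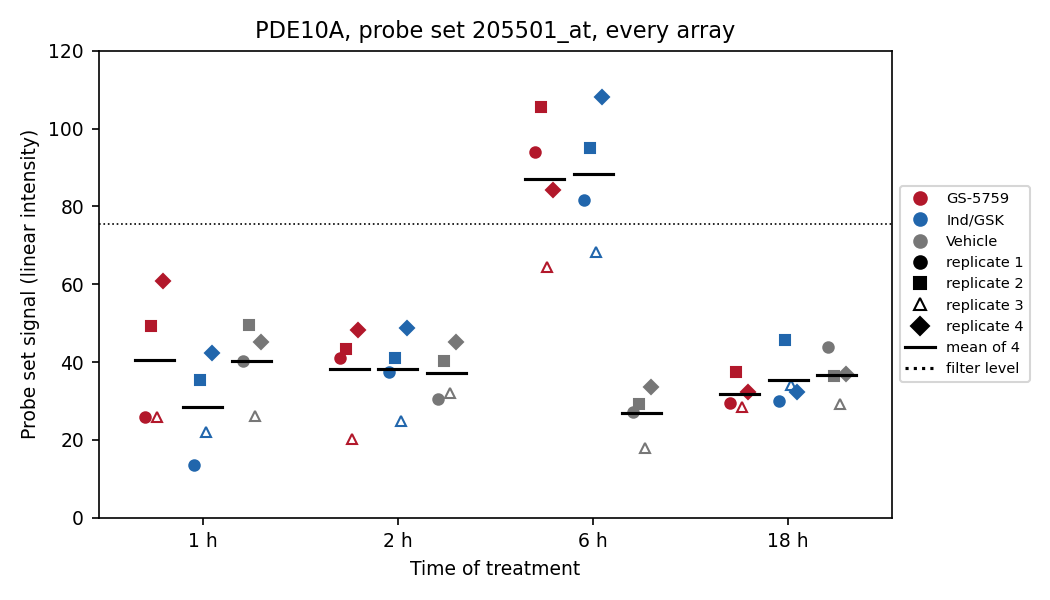
Signal of the second brightest PDE10A probe set (linear intensity) in each of the 48 arrays, by hours of treatment, with lines at means of 4 and the dotted filter level of 75.42. At 6 h the 8 treated arrays lie between 64.4 and 108.0 and the 4 vehicle arrays between 18.0 and 33.7, whereas the groups overlap at 1, 2 and 18 h.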

How the data were processed

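Arrays were 1 per sample, on labelled cRNA. The authors made the deposited probe set intensities, on a linear scale, with 2 tools that the submitters' processing notes name, PLIER and Affymetrix Expression Console. Versions and the normalization between arrays are not given in the sources used here. Groups and replicate numbers came from sample titles. From 54675 probe sets (62 controls, 11721 without a symbol, 1801 with several), the brightest of those with 1 symbol stood for each of 19775 genes. Symbols were updated through gene identifiers for 41037 of 41091 probe sets. Genes whose mean of log2(signal + 16) lay above the 40th percentile (log2 6.514, signal 75.42) were tested, 14409 in all. Array medians ran from 6.999 to 7.173, 75th percentile signals from 518.8 to 612.6 and correlations between arrays from 0.9684 to 0.9966. The number of arrays limits the precision.

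Limma 3.58.1 in R 4.3.3 fitted 12 group means over 48 arrays (36 residual degrees of freedom, prior 2.371), with Benjamini-Hochberg adjustment per comparison and calls at adjusted p under 0.05. Intervals are at 95%. On simulated data (GS-5759 against vehicle at 2 h, 14409 genes) the fit recovered 88% of changes of 1 and 95% of changes of 2 on the log2 scale, with 9 false calls. The simulated noise was independent between arrays, without the correlation between same-numbered arrays found here. These figures therefore check the code and do not give its recovery or false calls on these arrays. LINC00473, the gene lists, the comparisons and the alternatives were chosen with earlier results of these data known. Genes named were LINC00473, its neighbours within 1 Mb, up to 4 called members per list, NR4A2, SIK1, CRTC1 to CRTC3, NONO and PDE10A, and the 8 genes most like LINC00473. Other names are given where a small count or a match needed them, after values were seen.

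Same-numbered arrays were checked for pairing. After group means were removed, all 48 same-numbered pairs of arrays of the same time correlated over genes above the minimum of 0.1 (0.201 to 0.931). The replicate block is therefore given beside most list counts and for the named list members whose call it changed. Arrays of different numbers ran from -0.82 to 0.747. Motifs were counted on both strands in RefSeq promoter windows. Alternatives changed scaling, added constant, filter, probe sets, test and arrays used. Python 3.11.15, pandas 2.3.3 and matplotlib 3.10.9 were used.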

Additional observations from a re-analysis of the deposited data

Results flagged for a closer look

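LINC00473 had 2 groups in which 1 array stood far from the others by Dixon's ratio, the gap to the nearest array over the range of the group, above its 95% critical value. With GS-5759 at 6 h replicate 3 was the lowest, with a signal of 272.6 (ratio 0.850). With Ind/GSK at 18 h replicate 3 was the highest, with 254.8 (ratio 0.866). All 12 groups were checked, and chance flags about 1 in 20. Both arrays belong to the replicate whose epithelial marker signal differed from the others, and the part of that difference was not tested.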

How the results depend on the processing

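The differences of LINC00473 from vehicle kept their direction in 128 of 128 alternative values and moved by less than the residual SD of 0.43 in each. The largest relative change was with Ind/GSK at 18 h, 0.45 without replicate 3, against 0.76. The difference between GS-5759 and Ind/GSK passed the threshold in no alternative (p from 0.229 to 1), and 99 of 108 values kept its sign. Leaving out 1 array gave -0.0413 to 0.423 at 1 h, -0.0368 to 0.282 at 2 h, -0.341 to 0.124 at 6 h, -0.306 to -0.0816 at 18 h and -0.0888 to 0.0403 over 4 times. The sign turned without Ind/GSK replicate 3 (-0.0413) or GS-5759 replicate 1 (-0.0136) at 1 h, Ind/GSK replicate 3 at 2 h (-0.0368) and GS-5759 replicate 3 at 6 h (0.124). Over 4 times it turned without replicate 3 of Ind/GSK at 18 h (0.000492) or of GS-5759 at 1, 2 or 6 h (0.0273, 0.00425 and 0.0403), and without replicate 3 everywhere (0.0711), an alternative added after seeing the data. With the replicate block the difference kept its value, and adjusted p was 0.533, 0.901, 0.669, 1 and 0.748.

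Counts of called genes moved more. The block gave 195, 1344, 1526 and 21 genes with GS-5759 at 1, 2, 6 and 18 h, against 39, 350, 228 and 0, and 2608, 1708, 2567 and 271 with Ind/GSK, against 264, 503, 537 and 7. Between the treatments over 4 times it gave 2060 (1890 higher and 170 lower with GS-5759), against 13 (6 and 7). Fitting all single-symbol probe sets gave 73, 668 and 385 with GS-5759 and 561, 764 and 904 with Ind/GSK at 1, 2 and 6 h, and 130 between the treatments (94 and 36), where more features were tested. Centring on the 75th percentile, quantile normalization, no filter and leaving out replicate 3 gave 84 (0 and 84), 35 (0 and 35), 7 (1 and 6) and 2 (0 and 2) between the treatments. Either scaling and leaving out replicate 3 gave 1 gene with GS-5759 at 18 h. Quantile normalization gave 103 with Ind/GSK at 1 h (83 higher, 20 lower), and leaving out replicate 3 gave 2 at 18 h. Centring moved the split of higher and lower calls with Ind/GSK at 1 h to 196 and 15, against 65 and 199. Leaving out 1 array gave 31 to 39, 238 to 312, 97 to 202 and 0 to 3 with GS-5759, 74 to 433, 268 to 477, 240 to 581 and 1 to 12 with Ind/GSK, and 3 to 54 between the treatments. The cause was not tested.

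Signals near the filter level limit LINC00473 in vehicle at 6 and 18 h. With 4 arrays a group, a difference between the treatments at a single time is bounded only to between 0.555-fold (18 h) and 1.71-fold (1 h), or 0.658-fold and 1.44-fold with the block.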
